A study of Mus musculus with 14 samples.

Results

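Loss of both copies of Irx5 was compared with loss of 1 copy in mouse hearts at embryonic stage E12.5, over all 14 arrays of the series. Irx5-/- hearts (3 arrays) and Irx3-/-;Irx5-/- hearts (4 arrays) formed the group of 7 without Irx5. Irx5+/- hearts (3 arrays) and Irx3-/-;Irx5+/- hearts (4 arrays) formed the group of 7 with 1 copy, so no array came from a heart with both copies of Irx5. The labels of the Irx5+/- and Irx5-/- groups state no Irx3 mutation, and Irx3 genotype entered the linear model as a second term. The members were the 21776 probe sets with exactly 1 gene symbol, of 28763 in the table, and they represent 19931 genes.

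RNA of each heart sample was hybridised to an Affymetrix Mouse Gene 1.0 ST array, whose probe sets report transcript abundance as a log2 intensity. Nothing in the labels states that arrays came from separate embryos, so p-values measure the spread between these samples only. The making of both alleles, and the bases that they lack, are not described in the sources used here. The series title concerns cooperative and antagonistic roles of Irx3 and Irx5 in heart morphogenesis and later physiology.

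Irx5 and Irx3 lie next to each other and encode Iroquois proteins, homeodomain transcription factors that can act as repressors. In the mouse heart Irx5 is known for shaping the gradient of the potassium channel gene Kcnd2 across the adult ventricular wall, and Irx3 for rapid conduction through the ventricular conduction system. The heart at this stage is mainly cardiomyocytes, the endocardium that lines them, cushion mesenchyme that gives rise to valves, and the epicardium.

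Array medians lay between 8.04 and 8.14, and correlations between arrays between 0.953 and 0.986. Irx5+/- replicate 3 and Irx5-/- replicate 2 lay at opposite ends of the first principal component, which held 24.0% of the variance. The description of Irx3-/-;Irx5+/- replicate 4 names Irx5-/- embryos, whereas its title, source and genotype name Irx3-/-;Irx5+/-, and it was kept in the latter group. By Y-linked genes and Xist, 4 of the 7 arrays without Irx5 and 5 of the 7 arrays with 1 copy were female. The mean log2 intensity over 14 cardiomyocyte markers ran from 10.21, in Irx5+/- replicate 3, to 12.79. The same 14 probe sets were averaged on every array. In bulk tissue their level cannot tell the number of cells from the RNA per cell. What lay behind this range was not tested.

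Few single genes passed the test across all probe sets, while many small differences lay in the same direction within gene groups. With Irx5 lost, 7 probe sets of 4 gene symbols were called at an adjusted p under 0.05 (limma, Benjamini-Hochberg adjustment over all 21776 probe sets), which is 0.0321% of those tested. They were 3 higher (0.0138%) and 4 lower (0.0184%) probe sets. Counted by the brightest probe set of each gene, 3 genes were called (0.0151%), 1 higher (0.00502%) and 2 lower (0.01%). Hmcn1, the gene of the matrix protein hemicentin-1, and the predicted gene Gm4788 fell. Fdft1, which encodes squalene synthase of the cholesterol pathway, rose, as did 1 probe set assigned to Plscr1, which encodes a phospholipid scramblase. Markers of endothelium and endocardium lay lower as a list, and genes of mitosis, DNA replication, mitochondria and muscle lay higher, with no member of these lists called. Over all genes 43% of differences lay above 0, and the median was -0.03.

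Promoter sequences are shown for the 3 called genes that the RefSeq table covers, to let them be set beside the published Iroquois binding motif. Each runs from 250 bases before to 50 bases after the annotated start, 5′ to 3′ on the gene's own strand, in build GRCm38.p6. They are Hmcn1 at chr1:150993386-150993685 (minus strand), Gm4788 at chr1:139781190-139781489 (minus strand) and Plscr1 at chr9:92249944-92250243 (plus strand). Capitals mark matches to ACANNTGT, a palindrome that reads the same on both strands.
Hmcn1: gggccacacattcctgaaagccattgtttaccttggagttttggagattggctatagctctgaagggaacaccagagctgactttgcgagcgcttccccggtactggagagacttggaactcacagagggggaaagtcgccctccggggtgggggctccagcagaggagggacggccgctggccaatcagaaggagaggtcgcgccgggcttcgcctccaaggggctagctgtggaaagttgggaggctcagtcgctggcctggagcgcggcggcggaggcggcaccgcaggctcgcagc
Gm4788: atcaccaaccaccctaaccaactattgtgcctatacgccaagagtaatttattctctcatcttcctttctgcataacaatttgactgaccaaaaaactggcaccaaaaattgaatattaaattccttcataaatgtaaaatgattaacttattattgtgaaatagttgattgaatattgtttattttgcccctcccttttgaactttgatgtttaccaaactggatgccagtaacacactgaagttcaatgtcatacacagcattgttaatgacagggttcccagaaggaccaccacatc
Plscr1: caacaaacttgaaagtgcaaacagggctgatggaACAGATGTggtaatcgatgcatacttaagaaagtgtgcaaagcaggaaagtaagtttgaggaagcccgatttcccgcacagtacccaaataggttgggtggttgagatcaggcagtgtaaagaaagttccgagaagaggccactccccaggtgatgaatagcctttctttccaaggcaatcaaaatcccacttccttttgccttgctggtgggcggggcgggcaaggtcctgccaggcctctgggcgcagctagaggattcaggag
The Hmcn1 promoter had a GC content of 63.3% with 19 CpG dinucleotides and held no match, and the Gm4788 promoter held none either. The Plscr1 promoter held 1. Of the 20 genes nearest by number to the called Plscr1 probe set, 18 lie on chromosome 1 and 0 on chromosome 9. The second Plscr1 probe set, which lies among chromosome 9 genes by number, was not called. Which locus the called probe set reports was not settled, so the promoter shown may not belong to the called signal. Among all 15610 tested genes with a promoter in the table, 6.69% held at least 1 match. The share was 5.26% of 76 genes with higher and 6.82% of 44 genes with lower signal at an adjusted p under 0.10. A match is a description of letters in this window, and no occupancy was measured.

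Hmcn1 fell in the pooled comparison, with differences below 0 in both Irx3 backgrounds, neither of which passed the test on its own. Its probe set with the smallest p gave log2 intensities of 12.30, 12.31 and 12.65 in Irx5+/- hearts and 11.96, 11.27 and 11.73 in Irx5-/- hearts. On the Irx3-null background it gave 11.69, 11.98, 12.16 and 12.25 with 1 copy of Irx5, and 10.94, 10.91, 10.84 and 10.84 without. Within each background every array without Irx5 lay below every array with 1 copy, although Irx5-/- replicates 1 and 3 lay above the lowest Irx3-/-;Irx5+/- array. Such a separation within both backgrounds held for 0.496% of all probe sets in this direction. The difference was -0.98 ± 0.12 (SE) on the log2 scale, 1.97-fold lower (adjusted p = 0.0131). It was -0.76 with Irx3 present and -1.14 in Irx3-null hearts, and the test of that difference did not pass (adjusted p = 1.00). The brightest Hmcn1 probe set, at medians of 12.70 with 1 copy and 12.05 without, fell by 0.50 ± 0.08 (SE, adjusted p = 0.0381).

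The array holds 77 probe sets for Hmcn1, and all 77 lay below 0, from -1.16 to -0.30 with a median of -0.59. With Irx3 present 73 lay below 0, with a median of -0.33, and in Irx3-null hearts all 77, with a median of -0.81. Of these, 3 were called and 69 had an unadjusted p under 0.05, against 15.9% of all probe sets at that unadjusted level. They share the same 14 arrays and the same transcript, so they do not add replicates. Dock6, which encodes an activator of the small GTPases Rac1 and Cdc42, showed the like pattern: all 15 of its probe sets lay below 0, with a median of -0.58, all had an unadjusted p under 0.05 and none was called. Of the 78 genes with at least 5 probe sets, 10 had all of them below 0 and 23 had all above 0. The Hmcn1 probe sets had mean intensities from 8.31 to 12.43, and those of Dock6 from 8.65 to 10.83, with differences below 0 over the whole range.

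**Figure D1:**
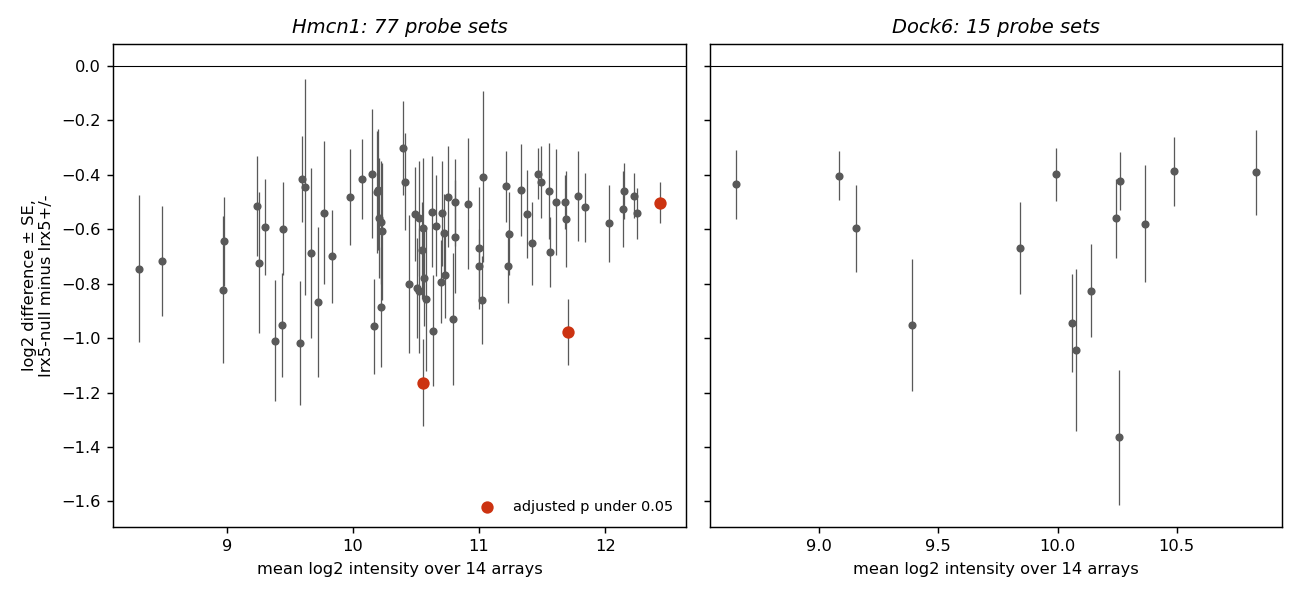
Log2 difference (Irx5-null minus Irx5+/- arrays, Irx3 genotype as a term) with its SE for each of the 77 Hmcn1 and 15 Dock6 probe sets, against the mean log2 intensity over 14 arrays. Each point lies below 0, and the 3 called Hmcn1 probe sets are in red.

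Gm4788 had the smallest p of the comparison. Its intensities were low, at 6.53 to 6.97 (median 6.78) in the 7 arrays with 1 copy of Irx5 and at 5.80 to 6.25 (median 6.09) in the 7 arrays without. The groups did not overlap, which was the case for 0.23% of all probe sets in this direction. The difference was -0.79 ± 0.09 (SE), 1.73-fold lower (adjusted p = 0.00932), at -0.80 with Irx3 present and -0.78 without it. The files give no function for this predicted gene, which was chosen for naming after its values were seen. Gm4788 and Hmcn1 both lie on chromosome 1, and of the 17 array genes between them 7 lay below 0. The array genes on either side of Gm4788, also chosen after their values were seen, are the potassium channel gene Kcnt2, at -0.69 ± 0.13 (SE, adjusted p = 0.0519), and the complement factor H related gene Cfhr3, at -0.48 ± 0.10 (SE, adjusted p = 0.0750). Nearby Aspm lay in the other direction, at 0.43 ± 0.08 (SE, adjusted p = 0.0519). Of the 20 array genes nearest to Gm4788, 11 lay above 0 and 9 below.

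Fdft1 rose on both of its probe sets. The brighter one gave 9.37, 9.32 and 9.61 in Irx5+/- hearts and 10.20, 10.42 and 10.35 in Irx5-/- hearts. On the Irx3-null background it gave 10.30, 10.01, 9.82 and 9.92 with 1 copy of Irx5 and 10.30, 10.49, 10.53 and 10.66 without. The Irx5+/- arrays were the lowest of the 4 groups, and over all 14 arrays the groups overlapped, since Irx3-/-;Irx5+/- replicate 1 lay above Irx5-/- replicate 1. Within each background they did not overlap, as was the case in both backgrounds for 0.625% of all probe sets in this direction. On the Irx3-null background the gap was very small: the highest array with 1 copy and the lowest without both round to 10.30. The difference was 0.66 ± 0.10 (SE), 1.58-fold higher (adjusted p = 0.0381), and the other probe set gave 0.85 ± 0.13 (SE, adjusted p = 0.0381). Of 20 cholesterol synthesis genes measured, Fdft1 was the single one called. The list had 18 members above 0, a median of 0.17 and 6 members higher at an unadjusted p under 0.05, a level reached upward by 8.01% of all genes.

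The called probe set assigned to Plscr1 gave 7.61 to 8.04 (median 7.97) in the 7 arrays with 1 copy of Irx5 and 8.33 to 8.89 (median 8.56) in the 7 arrays without, with no overlap, which was the case for 0.285% of all probe sets in this direction. The difference was 0.70 ± 0.10 (SE), 1.62-fold higher (adjusted p = 0.0255). The second Plscr1 probe set was brighter and did not pass, at 0.32 ± 0.14 (SE, adjusted p = 0.305), and its groups overlapped. Plscr1 lies on chromosome 9. Of the 20 genes with the nearest probe set numbers, 18 lie on chromosome 1 and none on chromosome 9 for the called probe set, whereas 19 lie on chromosome 9 for the second. Which locus the called probe set reports was therefore not settled.

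**Figure D2:**
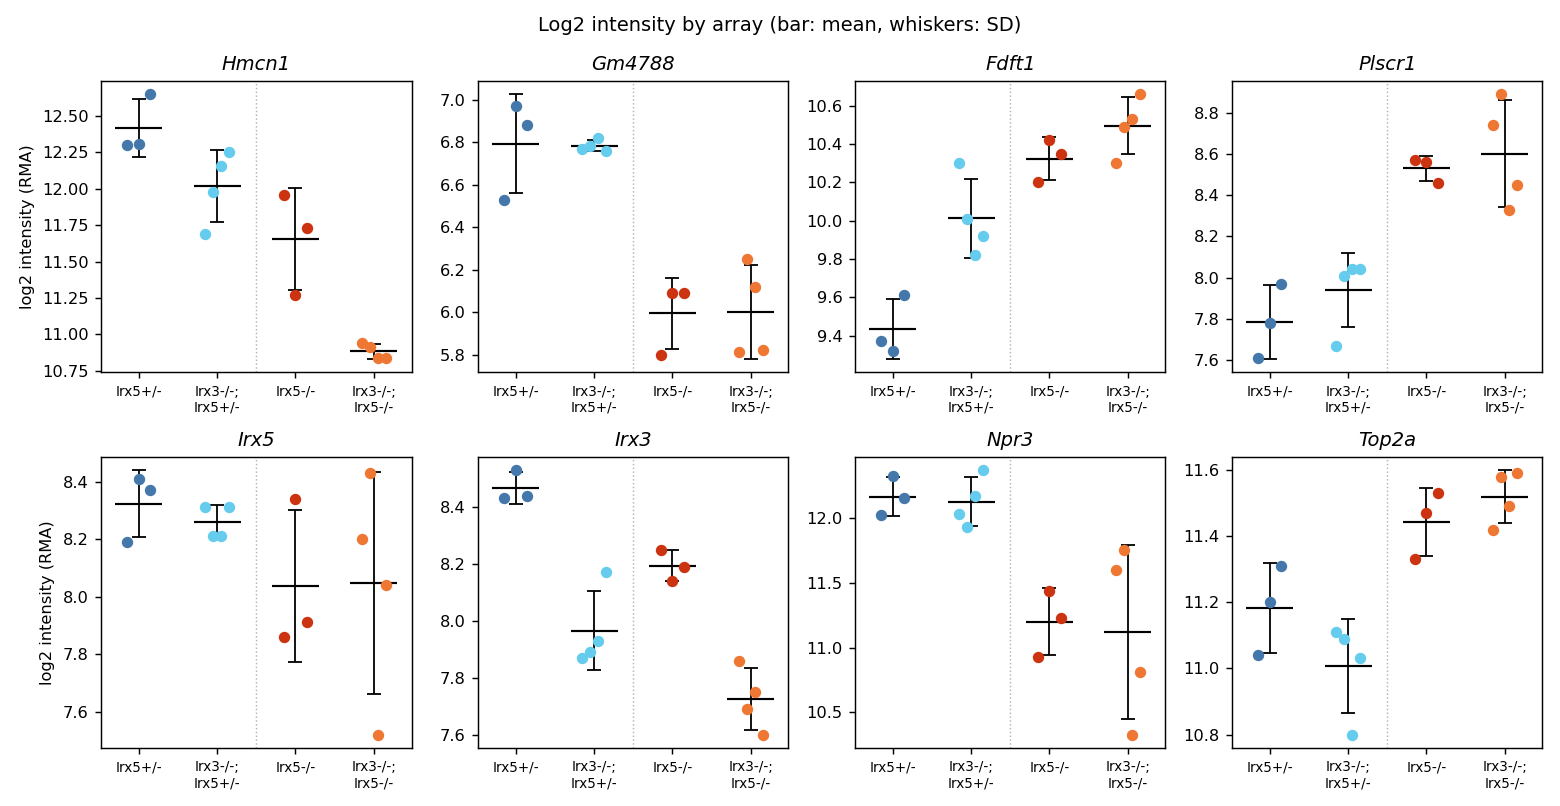
Log2 intensity of every array for 8 genes, by genotype, with the group mean (bar) and SD (whiskers). The dotted line separates groups with 1 copy of Irx5 (left) from groups without it (right). The probe set with the smallest p is shown for Hmcn1, Gm4788 and Plscr1, and the brightest for the others. Gm4788 and Plscr1 separate all 7 arrays from all 7, Irx5 itself does not.

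The number of calls moved with the settings, from 0 to 73 probe sets at the same threshold. A further 53 probe sets had adjusted p-values from 0.05 to 0.06, and 179 lay under 0.10 (0.822%), 99 higher (0.455%) and 80 lower (0.367%). By the brightest probe set that level held 142 genes (0.712%), 89 higher (0.447%) and 53 lower (0.266%). At an unadjusted p under 0.05 there were 3455 probe sets (8.36% higher and 7.5% lower), where 1089 would be the average count if none differed. Probe sets are correlated across arrays, so a count by chance can lie far from that average. Leaving out 1 array at a time gave between 1 call (without Irx3-/-;Irx5-/- replicate 4) and 35 calls (without Irx3-/-;Irx5-/- replicate 2). Gm4788 was called in all 14 of these fits, Hmcn1 by its leading probe set in 13, Plscr1 in 8 and Fdft1 by its brighter probe set in 3. The fit without dim probe sets could not test Gm4788, which was too dim for it. Leaving out both arrays at the ends of the first principal component gave 0 calls by limma and 2572 probe sets at an unadjusted p under 0.05. Hmcn1 then lay at -0.91 and Fdft1 at 0.63. A second quantile normalization gave 8 higher and 42 lower calls, against 3 and 4.

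**Figure D3:**
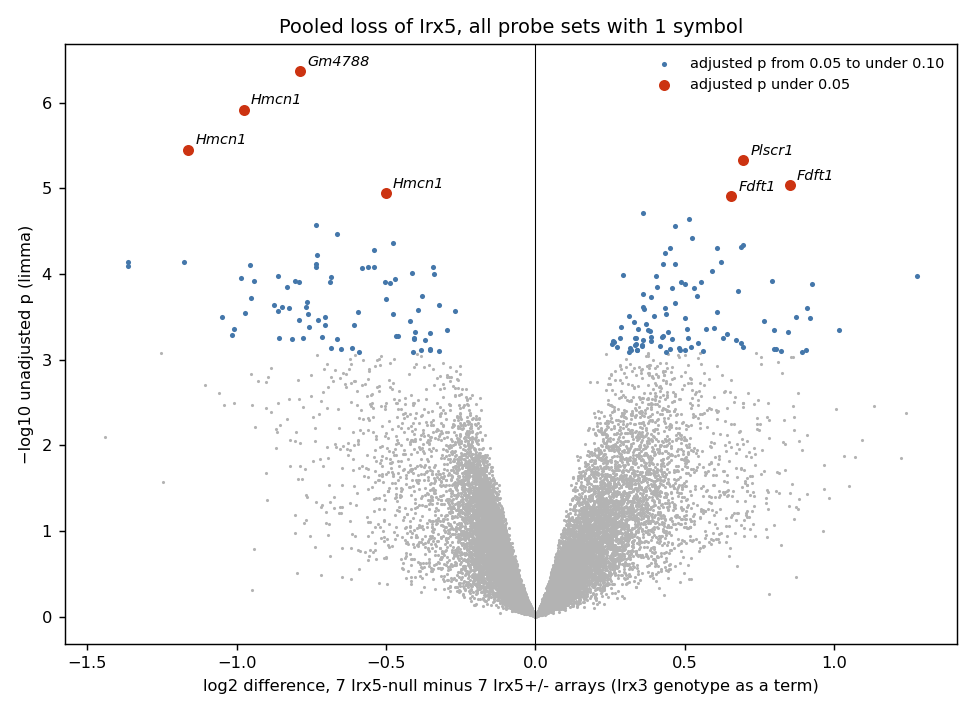
Log2 difference with loss of Irx5 against −log10 of the unadjusted p for 21776 probe sets. Called probe sets are red and named, and the blue points are the probe sets with an adjusted p from 0.05 to under 0.10.

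The Irx5 probe set itself did not separate the genotypes. It gave 8.19 to 8.41 (median 8.31) with 1 copy and 7.52 to 8.43 (median 8.04) without, and its highest array was Irx3-/-;Irx5-/- replicate 2. The difference was -0.25 ± 0.12 (SE, adjusted p = 0.333), with an exact permutation p of 0.0757 (2-sided, 1400 splits within Irx3 backgrounds). Since the bases missing from the allele are not known here, this signal is no check of the labels. Adding the mean of the endothelial markers as a term turned the Irx5 difference to 0.17. Around the mean of all arrays, that mean ran from 0.01 to 0.53 with 1 copy and from -0.67 to 0.13 without. The term is thus nearly confounded with Irx5 genotype, and this fit cannot tell the 2 apart.

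The signal of Irx3, the neighbour of Irx5, lay lower without Irx5 in both backgrounds and was not called. The bases missing from the Irx3 allele are not known here. On the Irx3-null background this signal may therefore not report intact Irx3 transcript. The Irx3 signal was 8.43, 8.53 and 8.44 in Irx5+/- hearts and 8.25, 8.14 and 8.19 in Irx5-/- hearts. On the Irx3-null background it was 7.87, 7.89, 7.93 and 8.17 with 1 copy of Irx5 and 7.86, 7.69, 7.75 and 7.60 without. The arrays did not overlap within either background, as was the case for 0.496% of all probe sets in this direction. The difference was -0.25 ± 0.06 (SE, adjusted p = 0.119 in limma), and the exact permutation p was 0.00143 (2-sided), the smallest that 1400 splits allow. Both results include the Irx3-null arrays. With Irx3 present the difference was -0.27 ± 0.10 (SE). Irx6, the third gene of this cluster, lay at -0.32 ± 0.10 (SE, adjusted p = 0.169), and the noncoding Crnde beside Irx5 at -0.47 ± 0.17 (SE, adjusted p = 0.213).

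Of the 20 array genes nearest to Irx5, 15 lay below 0 and 5 of them had an unadjusted p under 0.05, against 7.30% of all genes in that direction. Over all genes 43% lay above 0. The list of genes near Irx3, Irx5 and Irx6 had a median of -0.03, with 10 of 22 members above 0. At an unadjusted p under 0.05, 2 members of that list were higher and 2 lower. Sall1, a zinc finger gene at the edge of the window of 20 genes, lay at -0.73 ± 0.16 (SE, adjusted p = 0.0797). It ran from 9.79 to 10.30 with 1 copy and from 8.83 to 9.93 without. In the other Iroquois cluster, Irx1 (0.07 ± 0.09, SE) and Irx2 (0.01 ± 0.08, SE) lay near 0 and Irx4, a ventricular gene, at 0.43 ± 0.22 (SE, adjusted p = 0.346). Kcnd2, the known adult target, had medians of 8.08 with 1 copy and 7.86 without, and a difference of -0.12 ± 0.13 (SE, adjusted p = 0.650). Bmp10, a ligand of trabecular myocardium, lay at -0.03 ± 0.20 (SE, adjusted p = 0.952).

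Markers of endothelium and endocardium were lower without Irx5 as a list, with no single marker called. All 30 measured markers lay below 0, with a median of -0.53 beside -0.03 over all genes. Of them 22 had an unadjusted p under 0.05, against 7.3% of all genes in that direction. Without any 1 array the median stayed between -0.62 and -0.44. Averaged over the list, and centred on the mean of all arrays, the 7 arrays with 1 copy ran from 0.01 to 0.53 and the 7 without from -0.67 to 0.13. The overlap came from Irx3-/-;Irx5-/- replicate 2, at 0.13. In bulk tissue, fewer cells of a type and less RNA per cell cannot be told apart.

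Npr3, the clearance receptor for natriuretic peptides and an endocardial gene, gave 11.93 to 12.37 (median 12.15) with 1 copy and 10.33 to 11.75 (median 11.23) without. The groups did not overlap, as was the case for 0.236% of all genes in this direction. The difference was -0.99 ± 0.19 (SE, adjusted p = 0.0519). Ecscr, an endothelial surface protein, gave 10.43 to 10.79 against 8.94 to 10.25, again with no overlap (-0.83 ± 0.16, SE, adjusted p = 0.0540). The VEGF receptor gene Flt1 lay at -0.76 ± 0.16 and the angiopoietin co-receptor gene Tie1 at -0.70 ± 0.15 (SE, adjusted p = 0.0750 and 0.0767). The junction genes Pecam1 and Cdh5, chosen after their values were seen as the standard markers, lay at -0.79 ± 0.17 and -0.67 ± 0.15 (SE, adjusted p = 0.0797 and 0.0908).

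The transcription factors of this lineage, some of which are in both lists, lay in the same direction. Of 22 ETS and SoxF genes, 20 were below 0, with a median of -0.27. At an unadjusted p under 0.05, 10 were lower and 1 higher, against 7.3% and 8.01% of all genes. Sox7 lay at -0.86 ± 0.18 (SE, adjusted p = 0.0735) and the ETS gene Fli1 at -0.55 ± 0.16 (SE, adjusted p = 0.152). Of the 23 VEGF and angiopoietin signalling genes 16 lay below 0, with a median of -0.12, which was -0.20 without Irx3-/-;Irx5-/- replicate 2. Of the 22 Notch pathway genes 17 lay below 0, with a median of -0.08 that ran to -0.16 without Irx3-/-;Irx5-/- replicate 2, and endothelial Notch4 lay at -0.28 ± 0.07 (SE, adjusted p = 0.128). Cav1, the coat protein of caveolae, gave 10.04 to 10.78 against 9.06 to 10.15 (-0.73 ± 0.13, SE, adjusted p = 0.0519), and its partner Cav2 lay at -0.49 ± 0.13 (SE, adjusted p = 0.130). The 10 genes of the caveolae list had a median of -0.02, with 4 above 0. Among the TGF-beta co-receptors, Tgfbr3 lay at -0.88 ± 0.18 (SE, adjusted p = 0.0717) and Eng at -0.71 ± 0.18 (SE, adjusted p = 0.114).

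Other genes with small p in the lower direction were Slc22a23, a solute carrier, at -1.18 ± 0.21 (SE), the secreted protein gene Cytl1 at -1.36 ± 0.25 (SE) and the tyrosine phosphatase gene Ptpre at -0.66 ± 0.11 (SE). They shared an adjusted p of 0.0519 with Pcdhb20 (-0.74 ± 0.12, SE) and Sh3tc1 (-0.54 ± 0.10, SE). Pcdhb20 belongs to a cluster of similar protocadherin genes, so its probe set may read its relatives too. Slc22a23 ran from 9.41 to 10.40 with 1 copy and from 7.96 to 9.25 without. Its groups did not overlap, as was the case for 0.236% of all genes in this direction. The semaphorin genes Sema4d (-0.49 ± 0.09, SE, adjusted p = 0.0524) and Sema3a (-0.75 ± 0.19, SE, adjusted p = 0.119) lay below 0, in a list of 25 semaphorins, plexins and neuropilins with a median of -0.05. Of the 21 collagens 18 lay below 0 (median -0.17), among them Col23a1 and Col26a1 at -0.38 each. The median of these fibrillar and other collagens moved to -0.060 when Irx5-/- replicate 2 was left out, to -0.089 when Irx3-/-;Irx5+/- replicate 3 was, and to 0.0083 with the sarcomere mean of each array as a term.

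Genes of the cell cycle lay higher without Irx5. Of the 25 genes of G2 and M phase, 24 lay above 0 and 20 had an unadjusted p under 0.05, with a median of 0.34. All 24 DNA replication genes lay above 0, with a median of 0.22, and 10 had an unadjusted p under 0.05. That level was reached upward by 8.01% of all genes. The arrays with 1 copy had list means for G2 and M phase from -0.36 to -0.03 around the mean of all arrays, and those without from -0.08 to 0.39. The 2 ranges overlapped by 1 Irx5-/- array, and no member of either list was called.

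Top2a, the topoisomerase of dividing cells, ran from 10.80 to 11.31 (median 11.09) with 1 copy and from 11.33 to 11.59 (median 11.49) without (0.40 ± 0.08, SE, adjusted p = 0.0519). Bub1, a kinase of the spindle checkpoint, ran from 9.36 to 9.87 against 9.95 to 10.28 (0.47 ± 0.08, SE, adjusted p = 0.0519). Rrm1, the large subunit of ribonucleotide reductase, lay at 0.51 ± 0.08 (SE, adjusted p = 0.0519) and Mcm8, a helicase of the MCM family, at 0.68 ± 0.13 (SE, adjusted p = 0.0576). None of these 4 overlapped between the groups, as was the case for 0.266% of all genes in this direction. The 20 G1 cyclins and inhibitors had a median of 0.06, with Ccnd1, which encodes cyclin D1, at 0.27 ± 0.10 (SE, adjusted p = 0.236).

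Muscle genes lay higher as well, and here the size rested on few arrays. Of 32 sarcomere genes 30 lay above 0, with a median of 0.52. Against 8.01% of all genes in that direction, 8 sarcomere genes had an unadjusted p under 0.05. Leaving out Irx5+/- replicate 1 gave 24 such sarcomere genes, and leaving out Irx3-/-;Irx5+/- replicate 1 gave 14. It was 3 without Irx5+/- replicate 3, Irx3-/-;Irx5+/- replicate 3 or Irx5-/- replicate 2. Leaving out Irx3-/-;Irx5-/- replicate 3 gave 4, and leaving out Irx5+/- replicate 2 gave 5. The median was 0.88 with Irx3 present and 0.25 in Irx3-null hearts. Without Irx5+/- replicate 3 it was 0.33, and without both ends of the first principal component 0.19. The list mean of single Irx5+/- arrays ran from -1.51 to 0.07, a wider range than the 0.16 to 0.62 of Irx3-/-;Irx5-/- arrays. The 14 cardiomyocyte markers had a median of 0.53, and of 0.25 without Irx5+/- replicate 3. Myl7, the atrial light chain, lay at 0.75 ± 0.23 (SE, adjusted p = 0.171), Acta1, skeletal actin, at 0.67 ± 0.18 (SE, adjusted p = 0.144), and Hrc, a calcium binding protein of the sarcoplasmic reticulum, at 0.78 ± 0.26 (SE, adjusted p = 0.188).

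Gja5, which encodes the fast-conducting connexin of atria and the conduction system, gave 9.99, 8.31 and 7.38 in Irx5+/- hearts and 9.99, 10.97 and 10.09 in Irx5-/- hearts. It ran from 9.74 to 10.63 in Irx3-/-;Irx5+/- and from 10.23 to 11.14 in Irx3-/-;Irx5-/- hearts, so the groups overlapped, and the difference of 1.09 ± 0.36 (SE) did not pass (adjusted p = 0.190). Tbx20, a T-box factor of myocardium and cushions, ran from 9.90 to 10.69 with 1 copy and from 10.74 to 11.38 without, with no overlap (0.69 ± 0.12, SE, adjusted p = 0.0519). Such a separation held for 0.266% of all genes in this direction. Among the 28 cardiac transcription factors, with a median of 0.09, the venous and atrial factor Nr2f2 lay at -0.48 ± 0.13 (SE, adjusted p = 0.133). Kcnj2, an inward rectifier channel gene, lay at 0.54 ± 0.16 (SE, adjusted p = 0.163), in a list of 24 potassium channels whose median of -0.02 turned to 0.02 after a second quantile normalization.

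Genes of energy metabolism lay higher beside the muscle genes. All 32 oxidative phosphorylation genes lay above 0, with a median of 0.34. Against 8.01% of all genes in that direction, 20 had an unadjusted p under 0.05. These values rested on few arrays too: the median was 0.23 without Irx5-/- replicate 2, and the count ran from 9 to 23 when 1 array was left out. It was 9 to 12 without Irx5+/- replicate 2 or 3, Irx3-/-;Irx5+/- replicate 2 or 3, Irx5-/- replicate 2, or Irx3-/-;Irx5-/- replicate 3 or 4. With the sarcomere mean of each array as a term that median was 0.06 and 1 gene reached this level upward. All 24 mitochondrial ribosomal protein genes lay above 0 (median 0.28), as did 23 of 25 genes of glycolysis and the hypoxia response (median 0.44). Mrpl13 lay at 0.42 ± 0.10 (SE, adjusted p = 0.0991), Ndufs4, a subunit of complex I, at 0.50 ± 0.16 (SE, adjusted p = 0.172), and Egln3, an oxygen sensor, at 0.69 ± 0.20 (SE, adjusted p = 0.150). P4ha2, a collagen prolyl hydroxylase, gave 9.07 to 9.70 against 9.66 to 10.03 (0.52 ± 0.09, SE, adjusted p = 0.0519). Of the 19 cytosolic ribosomal protein genes 17 lay above 0 at a median of 0.08, which was 0.01 after a second quantile normalization.

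With the sarcomere mean as a term, the endothelial list kept a median of -0.55 and the G2 and M phase list one of 0.31. With the endothelial mean as a term, the G2 and M phase list had a median of 0.33 and the DNA replication list one of 0.31. Under either term 0 probe sets were called by limma, with 2294 and 1874 at an unadjusted p under 0.05. The leading Hmcn1 probe set then lay at -0.85 and -1.03, and the brighter Fdft1 probe set at 0.60 and 0.56. The endothelial mean itself nearly separated the arrays with and without Irx5, so fits with it as a term cannot tell it apart from Irx5 genotype. Whether cell content has a part in these differences was not tested beyond these values.

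Markers of cushion and valve mesenchyme had a median of 0.25, with 15 of 20 above 0. The number higher at an unadjusted p under 0.05, a level reached upward by 8.01% of all genes, was 7. It was 4 without Irx3-/-;Irx5+/- replicate 3 or Irx3-/-;Irx5-/- replicate 4. Vcan, which encodes versican of the cardiac jelly, lay at 0.58 ± 0.15 (SE, adjusted p = 0.122). The median was 0.05 with Irx3 present and 0.43 in Irx3-null hearts. Among Irx5-/- hearts the list mean around the mean of all arrays was -0.61 in replicate 2. It was 0.46 and 0.35 in replicates 1 and 3. Without Irx5-/- replicate 2 the pooled median was 0.37. Msx2, a cushion factor, lay at -0.02 with Irx3 present and 0.59 in Irx3-null hearts, and that difference was not called. The 12 epicardial markers had a median of 0.28, or 0.45 without Irx3-/-;Irx5-/- replicate 3, with list means overlapping widely between the groups. Tbx18, an epicardial factor, ran from 7.63 to 8.51 with 1 copy and from 7.74 to 9.67 without (0.72 ± 0.25, SE, adjusted p = 0.207).

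Lists for further cell types lay near the median of all genes: 0.05 for macrophages, -0.06 for neural crest and neurons, -0.08 for hepatoblasts and for lung and foregut endoderm, and 0.02 for skeletal muscle. The 7 erythroid markers measured had a median of -0.16. Wnt genes (median -0.02), Hedgehog genes (-0.07), retinoic acid genes (-0.05), BMP target genes (0.04) and BMP and TGF-beta ligands and receptors (0.04) lay near it as well. In these lists Rspo3, a Wnt agonist, lay at 0.49 ± 0.13 (SE, adjusted p = 0.119) and Wnt4 at -0.25 ± 0.08 (SE, adjusted p = 0.175). Bambi, a BMP pseudoreceptor gene, lay at 0.41 ± 0.11 (SE, adjusted p = 0.119).

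Several genes outside these lists had small p in the upward direction. C1d, which encodes a cofactor of the nuclear exosome, ran from 8.32 to 8.60 with 1 copy and from 8.79 to 8.99 without (0.36 ± 0.06, SE, adjusted p = 0.0519). Tspan13, a tetraspanin gene, lay at 0.70 ± 0.12 (SE, adjusted p = 0.0519), and its groups overlapped by Irx5-/- replicate 1. Klhl23, of the Kelch-like family, lay at 0.60 ± 0.13 (SE, adjusted p = 0.0880), in a list of 32 with as many members above as below 0. Of 23 heat shock and chaperone genes 21 lay above 0 (median 0.17), with Dnajb1, an Hsp40 co-chaperone, at 0.37 ± 0.08 (SE, adjusted p = 0.0851) and the small heat shock gene Hspb8 at 0.86 ± 0.21 (SE, adjusted p = 0.103).

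**Figure D4:**
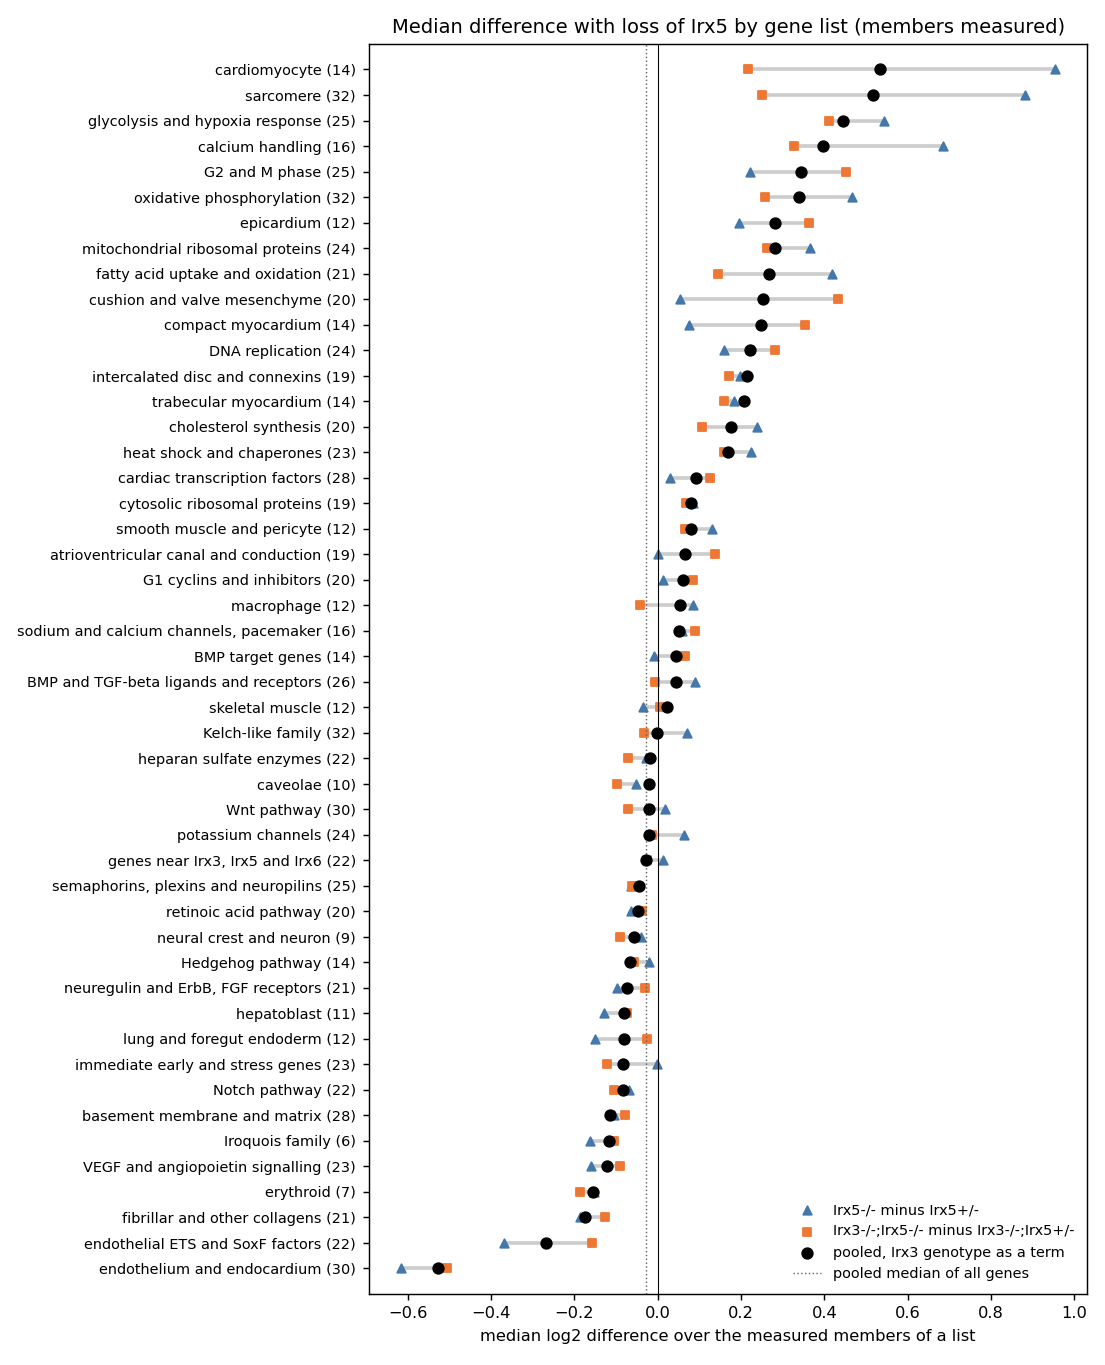
Median log2 difference over the measured members of 48 gene lists, with the number of members in brackets. Black circles are the pooled differences, triangles those of Irx5-/- minus Irx5+/- hearts and squares those of Irx3-/-;Irx5-/- minus Irx3-/-;Irx5+/- hearts. The endothelial list is lowest at -0.53, and the cardiomyocyte list highest at 0.53 with its 2 backgrounds far apart.

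Both Irx3 backgrounds use separate arrays, so the difference of Irx5 loss could be set side by side. Across 19931 genes, which are not independent replicates, the 2 sets of differences correlated at r = 0.391 and had the same sign for 65.9% of genes. Of the 100 higher and the 100 lower genes with the smallest p with Irx3 present, 76 and 85 kept their sign in Irx3-null hearts. In the other direction the numbers were 82 and 79. All arrays were normalized together by the authors, and the part of this in the shared sign was not tested. No difference between the backgrounds was called by limma, with 890 probe sets (4.09%) at an unadjusted p under 0.05 and a smallest adjusted p of 1.00. Each background alone called 0 probe sets by limma as well, with 1806 (Irx3 present) and 1954 (Irx3 null) at an unadjusted p under 0.05.

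**Figure D5:**
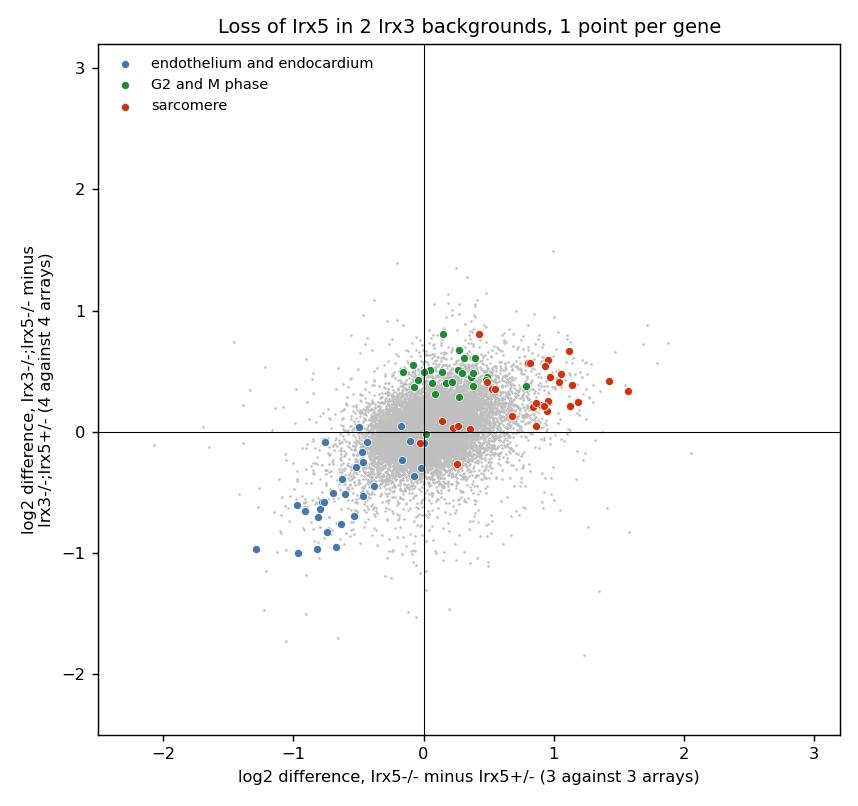
Log2 difference of Irx5 loss with Irx3 present (x axis) and in Irx3-null hearts (y axis), 1 point for each of 19931 genes. Endothelial markers (blue) lie mainly in the lower left, G2 and M phase genes (green) mainly above 0 on the y axis, and sarcomere genes (red) extend further along the x axis, with medians of 0.88 and 0.25.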

How the data were processed

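Hearts of 4 genotypes at E12.5 were measured on 14 arrays. Per the labels, RNA was isolated with PicoPure and NuGEN's WT-Ovation FFPE V2 kit amplified 1 ng of it. The deposited values are log2 intensities, which per the file headers the authors made with RMA in the R package affy over all arrays together. The sources used here do not give the versions or the genome build. Intensities have no depth, and the number of arrays limits precision.

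The deposited values were fitted in limma 3.58.1 (R 4.3.3) with Irx3 and Irx5 genotype as additive terms, 11 residual and 3.21 prior degrees of freedom, 2-sided, with Benjamini-Hochberg adjustment over 21776 probe sets and a threshold of 0.05. Group means gave the backgrounds and their difference. The fit was checked on simulated data. For lists, the brightest probe set stood for a gene. Symbols came from the platform annotation, 21685 of the probe sets matching RefSeq by gene ID.

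Members, 48 lists and named genes were chosen with earlier results of these data known. Named were Irx1 to Irx6, called genes, the 8 smallest p in a direction with fewer than 8 calls, up to 4 called or the 2 leading members of a list, and genes known from earlier results. Predicted genes were left out of naming by size or p, except Gm4788. Alternatives changed normalization, filter, model terms, weights, block and arrays.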

Additional observations from a re-analysis of the deposited data

Results flagged for a closer look

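Of 266 sets of 4 values from 1 genotype, 13 had an array far from the other 3 by Dixon's criterion, which chance reaches in about 1 in 20 sets. Among Irx3-/-;Irx5+/- hearts, replicate 1 was low for Pcdhb20 (7.69), Ptpre (7.53) and the called Plscr1 probe set (7.67), and replicate 2 for the brighter Dock6 probe set (10.82). Among Irx3-/-;Irx5-/- hearts, replicate 4 was low for the heat shock genes Dnajb1 (9.26) and Hspb8 (9.78), replicate 3 for the brighter Plscr1 probe set (9.03), and replicate 2 was high for Cav2 (8.28). For list means around the mean of all arrays, Irx3-/-;Irx5+/- replicate 2 was low for erythroid markers (-0.23), and replicate 3 high for basement membrane and matrix (0.09) and heparan sulfate enzymes (0.16). Irx3-/-;Irx5-/- replicate 1 was low for cardiac transcription factors (-0.05), and replicate 2 high for BMP and TGF-beta ligands and receptors (0.15).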

How the results depend on the processing

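The count of 7 calls was 2 without the Irx3 term, 1 with 1 probe set per gene, 4 over all probe sets of the table, 59 without dim probe sets, 12 after median centring, 50 after a second quantile normalization, 13 with trended robust moderation and 73 with array weights. It was 0 with the sarcomere mean as a term and 0 with the endothelial mean as a term. A mean per group gave 10 and sex as a term 7. The fit without dim probe sets left out Gm4788, so it tested 6 of the 7 calls, and these 6 were called. After the data were seen, a threshold of 0.10 was added (179 calls), as were fits without both ends of the first principal component (0), within the Irx3-present (0) and Irx3-null (0) backgrounds, and with both means as terms (1 call, Tspan13, and 0 of the 7). Leaving out 1 array gave 1 to 35 calls. Without Irx5+/- replicates 1, 2 and 3 there were 15, 3 and 4, without Irx3-/-;Irx5+/- replicates 1 to 4 there were 11, 6, 2 and 3, without Irx5-/- replicates 1, 2 and 3 there were 13, 2 and 2, and without Irx3-/-;Irx5-/- replicates 1 to 4 there were 16, 35, 3 and 1. The difference between backgrounds stayed at 0 calls in each fit run for it. With the replicate number as a block, 1 probe set (Gm4788) was called. The numbers do not pair the samples: deviations of the 19 same-numbered pairs correlated at -0.18 to 0.19, with 4 over 0.1.

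Signs turned for Irx5 with the endothelial mean as a term (0.17) and with both terms (0.17), and for the brighter Dock6 probe set under the same terms (0.086 and 0.13). Irx1 (-0.055), Msx2 (-0.017) and Kcnd2 (0.00032) turned with Irx3 present, Bmp10 in Irx3-null hearts (0.062) and after quantile normalization (0.041), and Irx4 with both terms (-0.17). Irx2, near 0 throughout, was -0.024 after quantile normalization, -0.028 with array weights, -0.041, -0.075 and -0.13 with the sarcomere, endothelial and both terms, and -0.013 without both ends. Leaving out 1 array moved Irx2 between -0.041 and 0.045 and Bmp10 between -0.16 and 0.083. The causes of these shifts were not tested.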
